A study of Homo sapiens with 8 samples.

Results

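The semaphorins and the plexins and neuropilins that receive them were represented by 33 of the 20046 protein-coding genes of GENCODE 44. There were 20 semaphorins, 9 plexins, the neuropilins NRP1 and NRP2, and the plexin domain containing genes PLXDC1 and PLXDC2. The genes were taken by symbol alone (SEMA with a digit and a letter, PLXN with a letter and an optional digit, and the 4 names just given). No measured value entered this rule, but the family was chosen with earlier results of these data known. Every stretch of accessible chromatin that touched a gene body or the 20 kb on either side was counted to that gene. This gave 433 regions out of 126658 in the whole data, and no region lay in the windows of 2 members.

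To follow accessible chromatin during an epithelial-mesenchymal transition (EMT), ATAC-seq, in which a transposase cuts DNA that is not wrapped in nucleosomes, was performed on the cell line MCF10A, which derives from human breast epithelium and is immortal but forms no tumours. The cells received either solvent (BSA in PBS, labelled as time 0) or TGFβ1 at 5 ng/ml for 6, 24 or 72 h, and all groups were grown with horse serum, EGF and hydrocortisone. Each of the 4 conditions had 2 replicates, 8 libraries in all, but the authors called peaks on both replicates of a condition together. There is therefore 1 peak list per condition, no value below has a replicate error, and no test or p-value is given for any difference. The labels do not say whether the replicates were separate cultures, but the study describes them as independent biological replicates.

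Accessibility is given as the AUC of a peak, the area under the peak caller's significance curve, summed over the peaks of a region or of a gene window. The AUC grows with sequencing depth and with peak length, and the depth left after the authors' filtering is unknown. The TGFβ1 lists were longer than the solvent list (107656, 118433 and 116720 peaks against 86209), and at regions within 3 kb of any transcription start site (TSS) their median log2 AUC ratios to solvent were 0.44, 0.38 and 0.25 at 6, 24 and 72 h. These shifts were subtracted from every ratio called "scaled" below. AUC values themselves are printed as deposited, so a gene with a constant scaled level shows a somewhat larger AUC under TGFβ1. A member was called higher or lower when its scaled AUC ratio to solvent was at least 1.5-fold in that direction, which is 0.585 on the log2 scale.

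Marker genes of several cell types were examined by peaks within 3 kb of their start sites. All 7 epithelial markers had such peaks in solvent (summed AUC 757 for TP63 to 46988 for LAMB3), as did all 5 mesenchymal markers (1563 for FN1 to 8508 for VIM) and all 3 neuronal markers (248 for SNAP25 to 5626 for SYP). Of the 3 endothelial markers TEK had no peak. Of the haematopoietic markers PTPRC had such a peak, whereas CD3E had none in any list. A peak at a start site does not measure transcription. Because every epithelial, mesenchymal and neuronal marker had one, these peaks did not tell those cell types apart and do not check the label of the cells. The start-site AUC of PECAM1, CDH5 and PTPRC was larger at 72 h than in solvent (2804 against 1633, 2663 against 625 and 3335 against 1510, before scaling), and whether this bears on the values of the members was not tested.

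Semaphorins are guidance proteins defined by an extracellular sema domain. Class 3 members are secreted and mostly act through a complex of a neuropilin, which binds the ligand, and a plexin A, which signals. Classes 4, 5 and 6 span the membrane, and SEMA7A is held to it by a lipid anchor. Plexins carry an intracellular domain that inactivates small GTPases of the Ras and Rap families, and by this route semaphorins change integrin adhesion, the actin cytoskeleton and the direction of cell migration. In epithelia the family is known for roles in branching, adhesion and invasion.

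A selection of the regions with large gains and losses at these genes is shown first by sequence. Each line gives the summit base and the 100 bases on either side of it, for the strongest peak of the region, read 5′ to 3′ on the plus strand of GRCh38, and regions are numbered along the chromosome within each gene. Capitals mark the letters of searched motifs. These were TGACTCA, the sequence bound by AP-1 (JUN and FOS dimers), which reads TGAGTCA on the other strand, and CACCTG, an E-box of the type bound by SNAIL and ZEB factors, which reads CAGGTG on the other strand. GGAATG, bound by TEAD factors (CATTCC on the other strand), and TGTGGTT, bound by RUNX factors (AACCACA), were marked as well.

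Of the 5 gained regions with the largest AUC at 72 h, NRP2_7 (chr2:205700931-205701131, an exon of an NRP2 transcript without a defined coding sequence) and SEMA4D_4 (chr9:89422156-89422356, an intron of SEMA4D) held an AP-1 match. So did SEMA7A_1 (chr15:74397128-74397328, downstream of SEMA7A) and SEMA5A_1 (chr5:9046769-9046969, an intron of SEMA5A), which were the regions of largest change in their genes. PLXDC2_8, SEMA5A_32 and SEMA3C_6, the others of the 5 gained regions, held no AP-1 match. Neither did SEMA6D_9 and SEMA3A_21, the regions of largest change in SEMA6D and SEMA3A. Of all regions gained at 72 h in the whole data, 39.9% held an AP-1 match. PLXNA4_13 (chr7:132650598-132650798, upstream of PLXNA4) is shown as the gained region at the start of the member with the largest change, and it held no AP-1 match. PLXDC2_8, SEMA5A_32 and SEMA3C_6 had larger AUCs at 72 h (1155, 1049 and 1008.5, against 783) but are not printed. SEMA6D_9 and SEMA3A_21 are not printed either. The sequences below therefore favour regions with an AP-1 match and do not represent all gains.
NRP2_7: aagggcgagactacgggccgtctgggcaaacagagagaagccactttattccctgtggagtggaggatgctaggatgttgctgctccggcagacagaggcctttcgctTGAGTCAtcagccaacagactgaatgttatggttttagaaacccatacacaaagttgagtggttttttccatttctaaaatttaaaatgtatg
SEMA4D_4: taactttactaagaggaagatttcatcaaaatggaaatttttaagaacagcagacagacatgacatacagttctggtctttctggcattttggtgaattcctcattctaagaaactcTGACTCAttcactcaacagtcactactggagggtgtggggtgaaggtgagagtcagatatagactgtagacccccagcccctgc
SEMA7A_1: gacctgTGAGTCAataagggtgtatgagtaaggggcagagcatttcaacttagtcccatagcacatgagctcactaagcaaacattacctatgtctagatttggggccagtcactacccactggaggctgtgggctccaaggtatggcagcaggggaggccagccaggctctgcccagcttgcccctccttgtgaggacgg
SEMA5A_1: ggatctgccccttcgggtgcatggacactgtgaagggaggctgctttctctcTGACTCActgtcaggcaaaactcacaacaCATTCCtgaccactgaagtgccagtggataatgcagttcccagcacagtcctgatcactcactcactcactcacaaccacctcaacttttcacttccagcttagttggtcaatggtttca
PLXNA4_13: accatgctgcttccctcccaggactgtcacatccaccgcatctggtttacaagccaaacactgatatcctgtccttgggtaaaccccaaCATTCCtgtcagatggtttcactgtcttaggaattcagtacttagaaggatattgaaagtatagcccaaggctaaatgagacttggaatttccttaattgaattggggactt

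Of the 5 lost regions with the largest solvent AUC, 4 held CACCTG and none held the AP-1 letters. Among all regions lost at 72 h in the whole data the shares were 28.1% and 7.72%. The 3 strongest of the 5 are PLXNA2_10 (chr1:208102144-208102344), SEMA4D_8 (chr9:89437262-89437462) and SEMA3E_3 (chr7:83486655-83486855), all within introns.
PLXNA2_10: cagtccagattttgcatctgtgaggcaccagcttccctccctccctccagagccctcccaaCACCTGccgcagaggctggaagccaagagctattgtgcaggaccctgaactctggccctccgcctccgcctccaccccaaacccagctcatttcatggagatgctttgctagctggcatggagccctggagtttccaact
SEMA4D_8: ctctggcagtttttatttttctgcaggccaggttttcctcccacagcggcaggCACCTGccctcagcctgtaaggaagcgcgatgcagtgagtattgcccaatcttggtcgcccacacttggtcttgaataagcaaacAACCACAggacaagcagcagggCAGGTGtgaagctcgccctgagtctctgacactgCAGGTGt
SEMA3E_3: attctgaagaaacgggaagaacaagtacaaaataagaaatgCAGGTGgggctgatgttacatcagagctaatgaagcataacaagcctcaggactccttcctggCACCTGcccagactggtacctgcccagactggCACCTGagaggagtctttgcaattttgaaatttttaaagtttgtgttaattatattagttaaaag

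Across the 33 members, accessibility under TGFβ1 was higher at a few genes and lower by 1.5-fold at none. At 6 h only SEMA7A was higher (3.03% of members, against 4.44% of 17965 protein-coding genes measured in the same way). At 24 h PLXNA4, SEMA7A and SEMA6D were higher (9.09%, against 10.5% of all genes). At 72 h SEMA3A and SEMA5A joined them, so that 5 of 33 members were higher (15.2%, against 11.6%). No member was lower at any time, where the shares of all genes were 0.0557%, 0.217% and 0.401% at 6, 24 and 72 h. These member shares lie near the background.

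The median scaled log2 ratios of the members were 0.07, 0.11 and 0.12 at 6, 24 and 72 h, beside 0.04, 0.08 and 0.08 over all genes, and 24 of 33 members stood above 0 at 72 h. Most of all genes did so as well, since PLXNB2, just above 0 at 72 h (0.003), exceeded only 35.9% of them. When the lists were scaled by all regions with a peak in both lists, which subtracts a further 0.06, 0.12 and 0.15, the members' median turned to -0.017 at 24 h and -0.028 at 72 h.

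**Figure D1:**
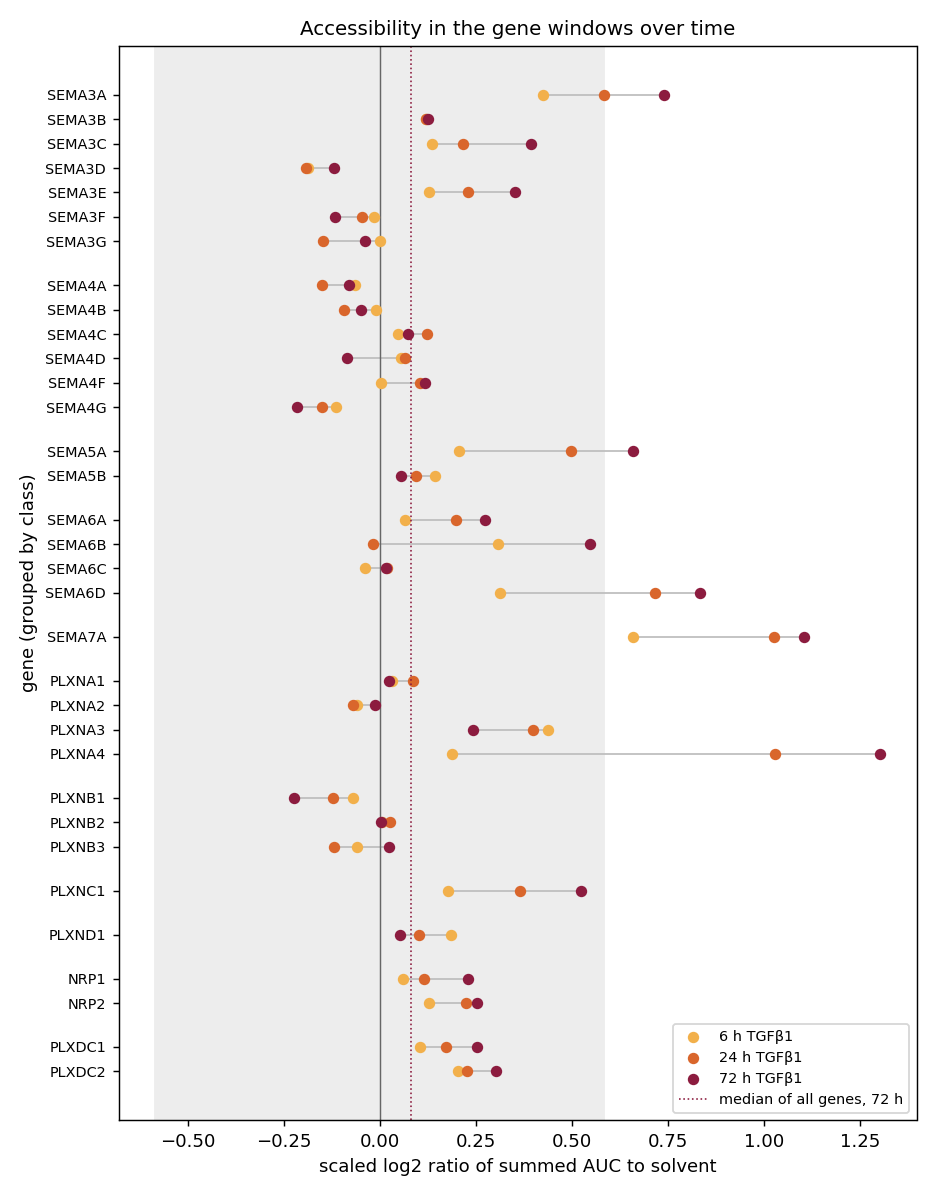
Scaled log2 ratio of the summed AUC in each gene window to solvent at 6, 24 and 72 h of TGFβ1 (horizontal axis) for the 33 members, grouped by class. Points are 1 pooled list each, the grey band marks changes under 1.5-fold, and the dotted line is the median of all genes at 72 h (0.08). At 72 h PLXNA4, SEMA7A, SEMA6D, SEMA3A and SEMA5A lie to the right of the band and no gene lies to its left.

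Because peaks were called separately in each list, a summed AUC moves with the number of bases under peaks. For the 5 members called at 72 h, the covered length was 1.59-fold to 2.41-fold that of solvent. The scaled log2 ratio of their mean AUC per covered base lay between 0.04 and 0.14. On that per-base measure no member was higher by 1.5-fold at any time (0.417% of all genes at 6 h, 0.902% at 24 h and 1.01% at 72 h). This holds for the mean over a gene window and not for every region, since single regions such as SEMA6D_9 and SEMA3A_21 gained more AUC than length. Added weak peaks can also lower this mean, so it does not separate wider peaks from more peaks. A separate setting divided each peak's AUC by its length before summing. There the 72 h call held for PLXNA4 (1.06), SEMA6D (0.72), SEMA5A (0.68) and SEMA3A (0.65) but not for SEMA7A (0.23).

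Among the secreted class 3 semaphorins, SEMA3A stood apart. SEMA3A repels axons and acts through NRP1 with plexins A. Its window held a summed AUC of 8524 in solvent and 15537, 16631 and 16911 after 6, 24 and 72 h. The value was lowest in solvent and nearly level from 24 to 72 h before scaling. The scaled ratio was 1.34-fold at 6 h and 1.67-fold at 72 h, and at 24 h it was just short of a call (0.584 on the log2 scale). The covered length was 4682 bp in solvent and 7594, 7643 and 7446 bp at the 3 times, with a mean AUC per base of 1.82 in solvent and 2.05, 2.18 and 2.27. SEMA3A had peaks in 13 regions in solvent and 20 at 72 h, with none lost. The region of largest change, SEMA3A_21 in an intron 80.3 kb from the 5′ end, had an AUC of 457, 751, 820 and 1222 in solvent and at 6, 24 and 72 h. It covered 309 bp in solvent and 489 bp at 72 h. Over regions present in all 4 lists the scaled log2 ratio of SEMA3A at 72 h was 0.46, below the call.

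The other class 3 members were within 1.5-fold at every time, with scaled log2 ratios at 72 h of 0.39 for SEMA3C, 0.35 for SEMA3E, 0.13 for SEMA3B, -0.04 for SEMA3G and -0.12 for both SEMA3F and SEMA3D. SEMA3C, which guides neural crest and endothelial cells, gained 6 regions and lost none. Its strongest gained region, SEMA3C_6, lay in an intron and had no solvent peak, with 260, 467 and 1008.5 under TGFβ1. SEMA3E, the ligand that binds PLXND1 without a neuropilin, gained 3 regions, among them its only region at an annotated start site, SEMA3E_6, which had no peak in solvent or at 6 h and reached 236 at 24 h and 298 at 72 h. SEMA3E lost the intronic region SEMA3E_3, whose AUC was 427 in solvent, 459 at 6 h and 229 at 24 h, with no peak at 72 h. Its mean AUC per base was also the most reduced of the members' (3.17 in solvent and 2.55 at 72 h).

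SEMA3D was among the 3 lowest members at 72 h although its start-site regions were not lower. The summed AUC was 2128, 2541, 2425 and 2325 in the 4 lists, on covered lengths of 884, 1034, 873 and 1028 bp. The intronic region SEMA3D_1 had an AUC of 1329 in solvent and 1561, 1058 and 1017 after 6, 24 and 72 h, which is 0.64-fold after scaling. The region at the 5′ end, SEMA3D_3, had 518, 615, 926 and 903. The low value of the gene thus rested on a single intronic region, which lay 1941 bp from a start site of another gene. Without the strongest region the scaled log2 ratio at 72 h was 0.46, and with regions assigned to the nearest gene it was 0.07.

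The membrane-bound class 4 semaphorins had scaled log2 ratios between -0.22 and 0.12 at 72 h and a median of -0.06. SEMA4G had the second-lowest value of all members (-0.22), with a summed AUC of 11325, 14208, 13275 and 11572.5 in the 4 lists and covered lengths of 4643, 5248, 4939 and 4575 bp. In its window 73.6% of the AUC at 72 h came from SEMA4G_3, which lies at the start sites of the neighbouring gene LZTS2. SEMA4A, SEMA4B, SEMA4C and SEMA4F had values of -0.08, -0.05, 0.07 and 0.12.

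SEMA4D, the ligand of PLXNB1, had a near-level sum (scaled log2 ratio 0.06, 0.07 and -0.08) made of opposite parts. Its regions within 3 kb of its own annotated start sites had a summed AUC of 3686 in solvent and 5091, 4149.5 and 2800.2 after 6, 24 and 72 h, a scaled log2 ratio of -0.64 at 72 h. Its distal regions had 1562, 2316, 3004 and 3072, a ratio of 0.73. The intronic SEMA4D_8 had 629, 577 and 279 and then no peak at 72 h. SEMA4D_1, at 131 bp from a start site inside the gene, had 351, 594 and 437 and was likewise absent at 72 h. In contrast, the intronic SEMA4D_4 had no solvent peak and reached 218, 624 and 1162.

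Of the class 5 semaphorins, which carry thrombospondin repeats, SEMA5A was higher at 72 h and SEMA5B was not. The summed AUC of SEMA5A was 22094 in solvent and 34602, 40619 and 41419 after 6, 24 and 72 h. The order of the lists followed the time of treatment. The scaled ratio was 1.15-fold, 1.41-fold and 1.58-fold, on covered lengths of 9765, 12835, 14790.0 and 15767 bp and mean AUCs per base of 2.26, 2.70, 2.75 and 2.63. SEMA5A had the most regions of any member, 41, of which 16 were gained and 1 was lost at 72 h. SEMA5A_1, an intronic region 499 kb from the 5′ end, had an AUC of 747, 1981, 2899.7 and 3036 and widened from 313 to 1058 bp, while the region over its 5′ end, SEMA5A_39, had 534, 791, 819 and 1009. The call of SEMA5A at 72 h was lost when scaled by all shared regions (0.51) or by all protein-coding genes (0.58), over regions in all 4 lists (0.41) and with lists of equal length (0.54). SEMA5B had a scaled log2 ratio of 0.06 at 72 h and gained a single region.

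In class 6, whose members signal through plexins A, SEMA6D was higher from 24 h on. Its summed AUC was 8306 in solvent and 14017, 17756 and 17557 after 6, 24 and 72 h, with scaled ratios of 1.24-fold, 1.64-fold and 1.78-fold. The covered length was 4552, 6123, 7797 and 7742 bp and the mean AUC per base 1.82, 2.29, 2.28 and 2.27. The 2 regions of largest ratio lay deep in introns. SEMA6D_9 had an AUC of 276, 881, 1081 and 1328, and SEMA6D_11 had 206, 522, 1002 and 1148. Peaks at SEMA6D_9 covered 358 bp in solvent and 691 bp at 72 h. SEMA6D had 7 gained regions and none lost at 72 h. With a window of 50 kb the gene fell below the call at 24 h (0.57) as well as 72 h (0.575). The 24 h call was also lost over regions in all 4 lists (0.49) and with lists of equal length (0.58).

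SEMA6A, SEMA6B and SEMA6C were within 1.5-fold, with 0.27, 0.55 and 0.02 at 72 h. SEMA6B was the least steady of them (0.31, -0.02 and 0.55 over the 3 times). It had the smallest solvent AUC of all members, 1297, spread over 3 regions, and 1 region gained or lost moved its sum.

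SEMA7A, a lipid-anchored semaphorin that binds PLXNC1 and β1 integrins, was higher at all 3 times. Its summed AUC was 6885 in solvent and 14776, 18251 and 17582 after 6, 24 and 72 h. All 3 TGFβ1 lists lay above 1.5-fold after scaling, at 1.58-fold, 2.04-fold and 2.15-fold, and at 72 h this exceeded 96.4% of all genes. The call at 6 h was lost with a window of 5 kb (0.39), a window of 50 kb (0.52) and the AUC per base (0.12), and with 5 kb PLXNA3, PLXND1 and SEMA6B were called at 6 h instead. The covered length was 3481, 5642, 7672 and 7455 bp, and the mean AUC per base 1.98, 2.62, 2.38 and 2.36.

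The increase at SEMA7A lay away from its promoter. The promoter region SEMA7A_7 had an AUC of 1825, 2634, 2753 and 2675, a scaled log2 ratio of 0.30 at 72 h. SEMA7A_1, 36.6 kb from the 5′ end and past the 3′ end of the gene, had 1206, 3206, 4589.7 and 4177, and its peak widened from 345 bp in solvent to 1553 bp at 72 h. SEMA7A_2, also downstream, had 651, 2594, 3367 and 3241, and the intronic SEMA7A_6 had 1220.5, 2425, 2703 and 3173. When each peak's AUC was divided by its length before summing, the scaled log2 ratio of SEMA7A was 0.23 at 72 h and the gene was no longer called.

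**Figure D2:**
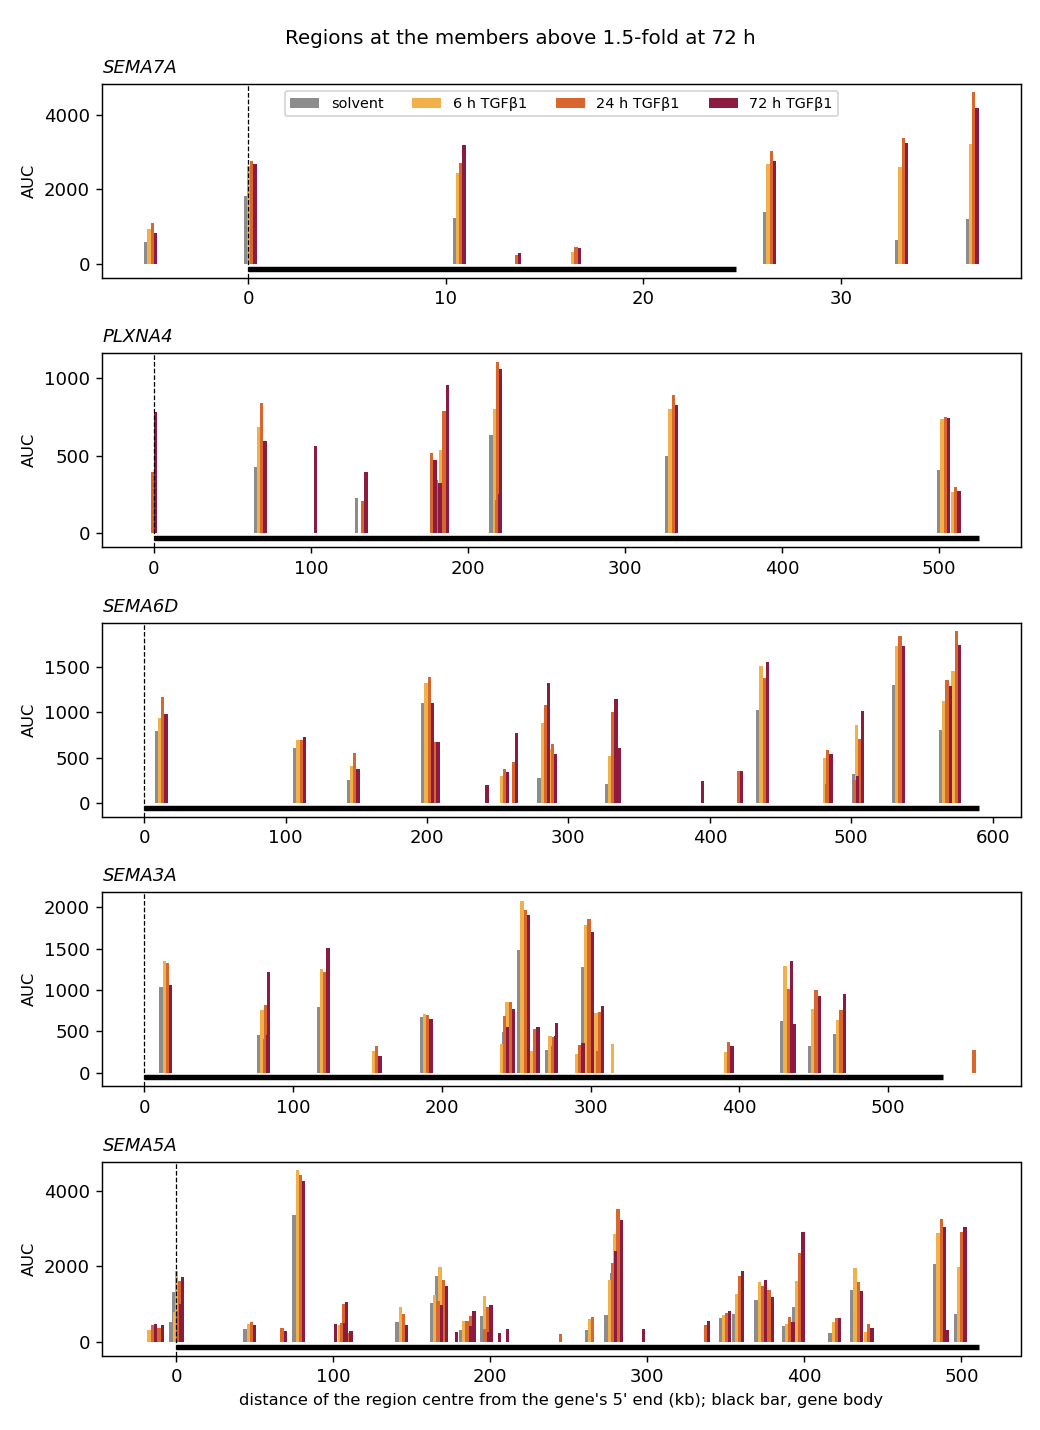
AUC of each region (vertical axes, as deposited, separate scales) by the distance of its centre from the 5′ end of the gene in kb, for the 5 members higher at 72 h, with bars for solvent and 6, 24 and 72 h of TGFβ1 drawn side by side and a black bar for the gene body. In SEMA7A the bars at the 5′ end differ less between lists (1825 to 2753) than those past the 3′ end (1206 to 4589.7).

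Among the receptors, PLXNA4 had the largest change of all 33 members. PLXNA4 pairs with neuropilins to receive class 3 semaphorins and binds class 6 semaphorins directly. Its summed AUC was 2479 in solvent and 3837, 6582 and 7259.7 after 6, 24 and 72 h. Solvent and 6 h were close after scaling (1.14-fold), whereas 24 h and 72 h were 2.04-fold and 2.47-fold. Peaks covered 1469, 1637, 3029 and 3538 bp, with a mean AUC per base of 1.69, 2.34, 2.17 and 2.05.

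PLXNA4 had peaks in 6 regions in solvent and in 12 at 72 h. PLXNA4_13, with its nearest edge 1758 bp from a start site, had no peak in solvent or at 6 h, an AUC of 397 at 24 h and 783 at 72 h. The intronic PLXNA4_6 had 283, 537, 787 and 956. All PLXNA4 values were small: no region of the gene exceeded an AUC of 1106 in any list, so a gain or loss of 1 weak peak weighs more here than in other members. PLXNA4 was above 1.5-fold at 72 h in all 12 settings tried for summed values, though not as mean AUC per covered base, with a lowest log2 ratio of 0.65 over regions present in all 4 lists.

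PLXNA1, PLXNA2 and PLXNA3 had scaled log2 ratios of 0.02, -0.01 and 0.24 at 72 h. PLXNA2, a receptor for SEMA3 and SEMA6 proteins, had the most lost regions of any member, 5 of the 26 with a solvent peak, all intronic, beside 7 gained. The strongest, PLXNA2_10, had an AUC of 882 in solvent and 606 at 6 h and no peak later, and PLXNA2_8 had 331 and 203 and no peak later. PLXNA3 was highest at its own start sites. There its summed AUC was 519 in solvent and 1653, 1551 and 1317 after 6, 24 and 72 h, a scaled log2 ratio of 1.23, 1.20 and 1.10.

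The plexins B, receptors of class 4 semaphorins, were level or slightly lower, with -0.22 for PLXNB1, 0.00 for PLXNB2 and 0.03 for PLXNB3 at 72 h. PLXNB1, the lowest of all members, had a summed AUC of 19214, 24846, 22983 and 19526 on 8352, 9209, 8397 and 7466 bp, the last of which is 0.89-fold of solvent. Its promoter region PLXNB1_7 had 6433, 7597, 6774 and 6077. PLXNC1, the receptor of SEMA7A, had scaled log2 ratios of 0.18, 0.37 and 0.52, below the call at every time, on a summed AUC of 4214, 6472, 7066 and 7185.

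PLXND1, the receptor of SEMA3E, was level as a whole (0.05 at 72 h) but lower at its start sites. These had a summed AUC of 785 in solvent and 1669, 1114 and 606 after 6, 24 and 72 h, so the scaled log2 ratio went from 0.65 to 0.12 and -0.62. The strongest region of the window, PLXND1_5 at 20.3 kb upstream, held 81.0% of its AUC at 72 h and had 6160.3, 8325, 7659 and 6919.

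The neuropilins, co-receptors for class 3 semaphorins and for vascular endothelial growth factors, were within 1.5-fold, NRP1 at 0.06, 0.12 and 0.23 and NRP2 at 0.13, 0.22 and 0.25. Both had broad, level promoters and gains away from them. The promoter region NRP1_20 had an AUC of 5547, 7299, 6676 and 5639.5, and NRP2_4 had 3792, 5211, 4492 and 4072. NRP2 gained 9 regions at 72 h and lost none, and its distal regions had a summed AUC of 6413, 11256, 13589.6 and 13168 (scaled log2 ratio 0.79) against 15675, 21514, 19989.9 and 18059 at its start sites (-0.04). NRP2_7 was the strongest gained region of the family, with no solvent peak and 818, 1392 and 1444 under TGFβ1. NRP1 gained 6 regions and lost 1.

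PLXDC1 and PLXDC2, transmembrane proteins with a plexin-like domain that are not plexins, had 0.25 and 0.30 at 72 h. PLXDC2 gained 8 regions, the strongest of which, PLXDC2_8, had no peak in solvent or at 6 h and reached 597 and 1155.

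Start-site and distal regions differed in the same way in most members. Of the 433 regions, 106 lay within 3 kb of a start site of the member itself, 55 near start sites of other genes and 272 were distal. At 72 h, 25 members had a ratio for both kinds, and in 19 of them (76%, against 77.8% of all genes with both) the distal ratio was the larger. Distal regions were higher by 1.5-fold in 12 of 27 members (44.4%, against 35.2% of all genes with such regions) and lower in none (against 1.89%). The median distal ratio was 0.43 for the members and 0.38 for all genes, so the members lay near the background.

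The members' own start sites were higher in PLXNA3 and PLXNA4 (2 of 31, 6.45%, against 5.65% of all genes) and lower in PLXND1 and SEMA4D (2 of 31, 6.45%, against 1.03%). Without scaling, the ratios of PLXND1 and SEMA4D were -0.37 and -0.40 and neither was called, while PLXNA3 and PLXNA4 had 1.34 and 1.91. Scaled by all shared regions, PLXND1 and SEMA4D had -0.77 and -0.79, PLXNA3 and PLXNA4 had 0.95 and 1.52, and all of them stayed called.

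**Figure D3:**
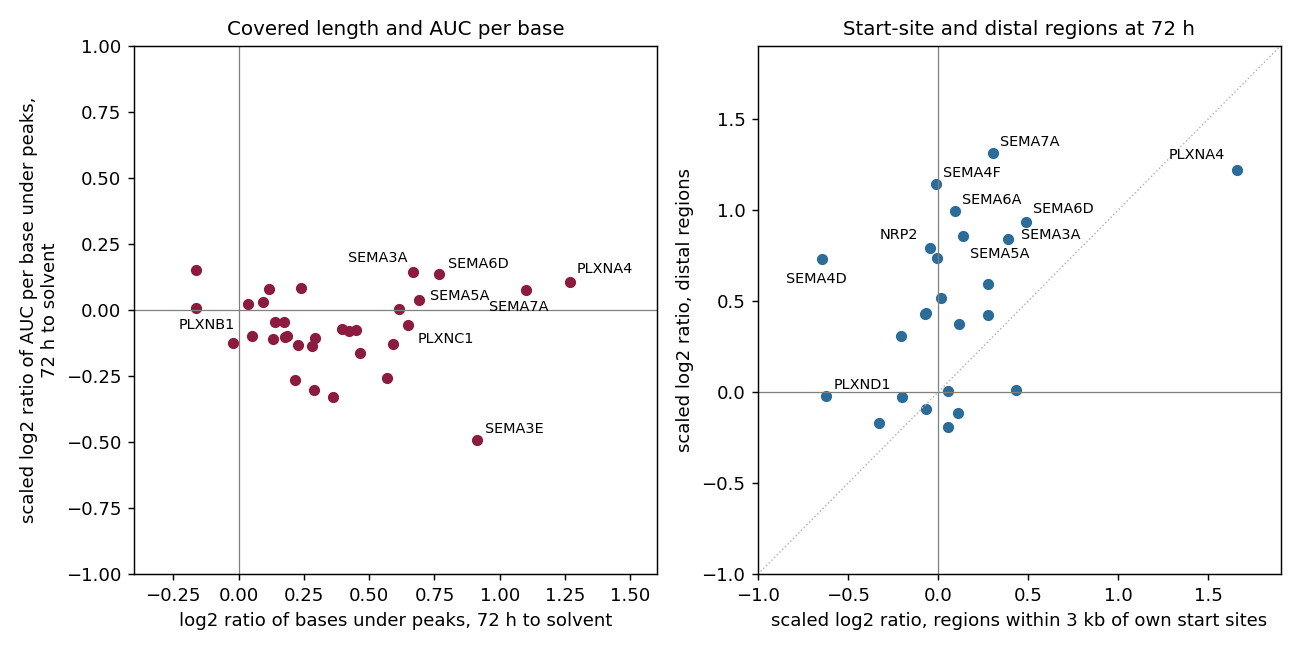
Left, log2 ratio of the bases under peaks at 72 h to solvent (horizontal) against the scaled log2 ratio of the mean AUC per covered base (vertical) for the 33 members. PLXNA4, SEMA7A, SEMA6D, SEMA3A and SEMA5A spread along the horizontal axis (0.67 to 1.27) and stay between 0.04 and 0.14 on the vertical. Right, scaled log2 ratio at 72 h of start-site regions (horizontal) against distal regions (vertical) for the 25 members with both, with a dotted line of equality above which 19 of them lie.

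Regions gained, with a peak under TGFβ1 and none in solvent, made up 18.8% of the members' regions at 6 h (70 of 373, 95% Wilson interval 15.1 to 23.0%), 25.7% at 24 h (105 of 408, 21.7 to 30.2%) and 24.6% at 72 h (99 of 402, 20.7 to 29.1%). Among all merged regions the shares were 22.9%, 29.8% and 29.3%. Regions lost were 4 at 6 h (1.07%, against 0.551% of all regions), 8 at 24 h (1.96%, against 1.31%) and 15 at 72 h (3.73%, interval 2.27 to 6.06%, against 2.43%). The intervals cover counting error only. With lists of equal length, which makes gains and losses nearly equal over all regions by construction, 11.7% of the members' regions were gained and 12.0% lost at 72 h. The shares over all regions were not calculated for these lists.

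Gained regions were weak and mostly distal, as in the whole data. At 72 h their median AUC was 373 (361 for all gained regions), near the authors' lower limit of 200. Outside 3 kb of any start site lay 86 of the 99 (86.9%, against 79.1% of all gained regions) and 10 of the 15 lost (66.7%, against 64.3%). Across the 4 lists, 287 regions (66.3%, against 62.6% of all regions) had a peak in every list, and 52 (12.0%, against 14.3%) in all 3 TGFβ1 lists but not in solvent. Of the others, 30 appeared first at 24 h and stayed (6.93%, against 7.55%), 16 were present at 72 h alone (3.70%, against 4.61%) and 3 in solvent alone (0.693%, against 0.300%). By member, gains numbered 16 at SEMA5A, 9 at NRP2, 8 at PLXDC2 and 7 each at SEMA3A, SEMA6D and PLXNA2, and 9 members had none.

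**Figure D4:**
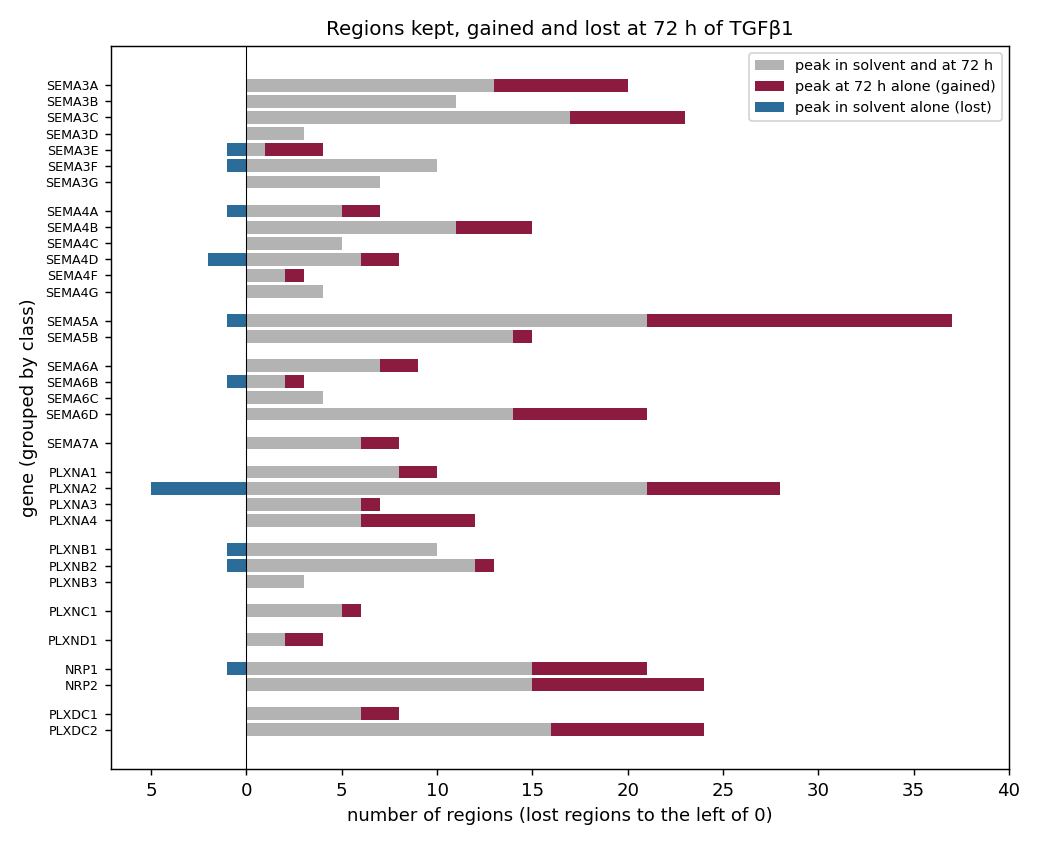
Number of regions per member (horizontal axis) with a peak in solvent and at 72 h (grey), at 72 h alone (dark red) and in solvent alone (blue, drawn to the left of 0). SEMA5A has the longest red bar with 16 regions, and PLXNA2 the longest blue bar with 5.

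A few regions with large changes sat in genes whose sum was level and were chosen after their values were seen. SEMA3B_7, upstream of SEMA3B, had an AUC of 429, 1338, 2061 and 2207 on 4 lists in which the gene as a whole had a scaled log2 ratio of 0.12 to 0.13. PLXNA2_35, 10.5 kb upstream of PLXNA2, had 497, 1120.5, 1608 and 2277. In the other direction, SEMA3F_2 had 3249, 3626, 3112 and 1956, and PLXNA2_13 had 756, 594, 365 and 289.7. The level sum of PLXNA2 thus held regions that changed in opposite directions.

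Motif letters in the same windows around all summits were counted on both strands for 7 motifs. TGACTCA was present in 31.4% of the members' regions and 32.3% of all regions. It was more frequent in distal regions (39.7% of 272, interval 34.1 to 45.6%, against 37.5% of all distal regions) than within 3 kb of a start site (17.4% of 161, interval 12.3 to 24.0%, against 22.3%). In distal regions gained at 72 h it stood in 39 of 86 (45.3%, interval 35.3 to 55.8%, against 40.8%). In the 15 lost regions it stood in none, which allows a share of up to 20%, against 7.72% of all lost regions.

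CACCTG was about as frequent in distal regions (16.5%) as within 3 kb of a start site (18.0%). It was present in 9 of the 99 gained regions (9.09%, interval 4.86 to 16.4%, against 14.5% of all gained regions) and in 7 of the 15 lost ones (46.7%, interval 24.8 to 69.9%, against 28.1%). Of the remaining motifs, GGAATG was in 15.7% of the members' regions, TGTGGTT in 5.31%, GTCTAGAC (bound by SMAD proteins) in 3 regions, TTGCGCAA (C/EBP) in 1 and AACCGGTT (GRHL) in none. Over all regions the shares were 15.9%, 6.48%, 0.295%, 0.108% and 0.0521%, and a match of letters does not show that a factor was bound.

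Genes that act with the family were followed by the same measure. The list held 34 genes, namely intracellular effectors such as CRMP, MICAL and FARP proteins and co-receptors such as MET, ERBB2 and L1CAM, of which 33 could be measured. None was higher at 6 h (against 4.44% of all genes) and only FLT1 was at 24 h (against 10.5%). At 72 h FLT1 and MICAL2 were higher (2 of 33, against 11.6%). None was lower at any time, against 0.0557%, 0.217% and 0.401% of all genes at 6, 24 and 72 h. The median was 0.05, 0.09 and 0.20, beside 0.04, 0.08 and 0.08 over all genes. FLT1, a receptor for vascular endothelial growth factor, had a summed AUC of 656 in solvent and 1232, 1872 and 1564 under TGFβ1 (scaled log2 ratio 1.01 at 72 h). These sums over 4 regions were small, so a gain or loss of 1 weak peak weighs much in this ratio. MICAL2, an enzyme that oxidises actin, had 44346, 75801, 82916 and 85309 (0.70). The partner receptors MST1R and ERBB2 were at -0.17 and -0.13. CHL1, a cell adhesion molecule that associates with NRP1, was listed at 0 in solvent and had 213, 524 and 498 under TGFβ1.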

How the data were processed

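ATAC-seq peak lists of MCF10A cells, 1 per condition, were used as deposited. According to the study's methods and the submitters' processing notes, the authors used Trimmomatic 0.38 for trimming and Bowtie2 2.4.5 for mapping to GRCh38, removed duplicates with Picard, kept properly paired reads outside the mitochondrial genome with SAMtools 1.4.1 and called peaks with Genrich 0.5 in ATAC-seq mode on both replicates together. The authors kept peaks with an AUC over 200 and an adjusted p under 0.01. The deposited signal value is the AUC, which is not scaled between lists. The deposited q value, on a −log10 scale, and the summit offset were used only to check the lists and to place summits. Lists were matched to conditions by the authors' file naming. Solvent is time 0 in the labels but 72 h of solvent in a legend of the study. The lists hold no reads, so the depth left after filtering is unknown.

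Peaks of the 4 lists sharing at least 1 bp were merged. Genes and 219706 transcript start sites came from GENCODE 44. Regions touching a gene body or the 20 kb around it were summed per list, and each list was scaled by its median log2 ratio to solvent at regions within 3 kb of a TSS. With 1 pooled list per condition no test was possible, so changes of at least 1.5-fold were counted and read beside the same count over all protein-coding genes. Members within the 1.5-fold limit at all times were given by range and role. Named in full were members past 1.5-fold at any time and the 3 highest and 3 lowest at 72 h, with their region of largest change, and the 5 strongest gained and 5 strongest lost regions. Other regions and genes were named after their values were seen. The members and the lists of markers and partner genes were chosen with earlier results of these data known. A haematopoietic marker of these lists is not reported here. The calculation was tested on simulated lists. A set shift of 0.4 was recovered as 0.40, 100 raised and 99 lowered genes of 200 changed 2-fold were called, and so were 4 of 9968 unchanged genes. The simulated lists kept every solvent peak at its length, so gained, lost and wider peaks were not simulated. The simulation therefore checks the calculation and gives no rate of false calls for the deposited lists. Alternatives covered the window, the scaling, the minimum AUC, the AUC per base, the strongest region, the nearest gene, lists of equal length and the overlap. The software was pandas 2.3.3, numpy 2.4.6, matplotlib 3.10.9 and scipy 1.17.1 under Python 3.11.15.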

Additional observations from a re-analysis of the deposited data

How the results depend on the processing

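No paired analysis was possible because each deposited list pools both replicates of a condition, and for the same reason no replicate could be left out. No member named in full that was past the 1.5-fold limit changed its direction under an alternative. Counts, shares and the members' medians could not meet this rule, and those medians changed sign at 24 and 72 h when scaled by all shared regions. Without scaling, the members' median log2 ratio was 0.51, 0.49 and 0.36 at 6, 24 and 72 h, beside 0.48, 0.46 and 0.33 over all genes, and 11, 11 and 9 members were higher (29.5%, 32.6% and 22.5% of all genes). Scaling by all shared regions gave medians of -0.017 at 24 h and -0.028 at 72 h. Without the strongest region of each gene the medians were 0.23 at 24 h and 0.34 at 72 h (both 0.21 over all genes), with 4, 8 and 10 members higher (11.2%, 22% and 23.7% of all genes). With regions assigned to the nearest gene the median at 72 h was 0.24 (0.15 over all genes), with 3 members higher at 6 h and 5 at 24 h (7.1% and 16.5%). Over regions present in all 4 lists, 1 member was higher at 24 h and 3 at 72 h (4.08% and 4.7% of all genes). At 6 h the count was 3 with a window of 5 kb (4.81% of all genes) and 0 with 50 kb (4.24%). It was 2 with a minimum AUC of 400 and 0 at a 2-fold limit (1.36%), and at 72 h it was 2 at that limit. SEMA6B was the 1 member lower at 24 h with a window of 5 kb and, likewise, 1 with lists of equal length. With the same window of 5 kb SEMA6B was called higher at 6 h. No share of all genes is given beside the counts for the minimum AUC of 400, the 2-fold limit at 72 h and lower SEMA6B. Those counts are therefore not read as results about the members. Lists of equal length (86209 peaks), which balances gains and losses by construction, gave gained shares of 5.61%, 10.4% and 11.7% and lost shares of 4.98%, 11.5% and 12.0%. Requiring 50% of both peaks to overlap gave lost shares of 9.27%, 8.30% and 11.3%, and a minimum AUC of 400 gave 0% at 6 h and 2.18% at 72 h. Gained and lost shares over all regions were not calculated for these alternatives. The following were chosen after seeing the data. On the mean AUC per covered base, which divides out the covered length, 0 members were higher at each time. Without scaling, 7 members were higher and 0 lower at their start sites at 72 h, and the share of all genes was not calculated for this setting. For the other changed values the cause was not tested. The remaining 105 alternatives of these results stayed close to the values reported. At 72 h the call held in all 12 settings for PLXNA4, in 11 for SEMA7A, SEMA6D and SEMA3A, and in 8 for SEMA5A.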

Other observations

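The class 3 genes SEMA3A, SEMA3C, SEMA3D and SEMA3E lie in 1 stretch of chromosome 7 that spans 4.44 Mb (chr7:80742538-85187056 on GRCh38). Their windows held 58 regions. Of the 51 with a peak in solvent or at 72 h, 16 were gained at 72 h (31.4%, against 29.3% of all merged regions). SEMA3D had 3 regions, none of them gained, in a gene of 191.5 kb, whereas SEMA3C had 26 in one of 179.8 kb. The density of regions differed widely over the family, from 1.30 per 100 kb of window at SEMA3D and 2.30 at PLXNA4 to 26.0 at SEMA3B.

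The AP-1 letters TGACTCA stood near the summit in 32.3% of all regions and 37.5% of all distal ones. Among the members with most matches the share was 16 of 41 regions at SEMA5A (39%), 13 of 35 at PLXNA2 (37.1%) and 12 of 23 at SEMA3A (52.2%). It was 11 of 23 at SEMA6D (47.8%), 10 of 24 at NRP2 (41.7%) and 10 of 26 at SEMA3C (38.5%). High shares also occurred in members with few regions that were not called, 3 of 5 at SEMA6B (60%) and 3 of 6 at SEMA3E (50%). At SEMA7A the letters stood in 2 of 8 regions. These differences between members were not tested. SEMA3D, SEMA3G, SEMA4F, SEMA4G and SEMA6C had none in 3 to 7 regions each.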
